A study of Mus musculus with 6 samples.

Results

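The genes described here are 8 of the 54532 Ensembl genes measured in mouse cervical spinal cord: the neurotrophins Bdnf and Ntf3, their receptors Ntrk2, Ntrk3 and Ngfr, the ligand Gdnf and its receptor parts Ret and Gfra1. They were chosen by symbol, as a family, and all 8 were found in the deposited tables. Their levels were compared between 3 control and 3 ACD cords, 6 C57BL/6 mice in all. ACD is allergic contact dermatitis, an itching inflammation of the skin raised with the contact allergen SADBE (squaric acid dibutylester). Per the labels' protocols, the abdomen was painted with 20 µl of 1% SADBE in acetone on 3 days, and 5 days later the ACD mice received 20 µl of 1% SADBE on the nape on 3 days where the controls received acetone. Whether the controls were also painted on the abdomen is not clear from that wording, and neither age nor sex of the mice is given in the sources used here. The whole tissue was used, so in what follows fewer cells of a type and less RNA per cell cannot be told apart.

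Neurotrophins are secreted growth factors that keep neurons alive during development and tune synapses in the adult. BDNF acts through the receptor tyrosine kinase TrkB (Ntrk2), neurotrophin 3 acts through TrkC (Ntrk3), and all neurotrophins also bind the receptor p75 (Ngfr). GDNF binds the membrane-anchored co-receptor GFRα1 (Gfra1), and the pair then activates the kinase RET (Ret). In the spinal cord BDNF from sensory endings and microglia is known for sensitising dorsal horn neurons in pain states, neurotrophin 3 for supporting the muscle afferents that reach motor neurons, and GDNF for supporting motor neurons.

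In the ACD cords Bdnf rose about 1.51-fold and Ntrk3 fell to 0.684 of its control level, while Ntrk2, Ngfr, Ret and Gfra1 did not pass the test. Ntf3 was lower in all ACD libraries than in any control but rested on 2 to 10 reads per library and did not pass either. Gdnf was near the detection limit in both groups. The test was limma on log2(FPKM + 0.1) over the 21369 genes whose mean reached 0.1 FPKM, with p-values adjusted by the Benjamini-Hochberg method and a threshold of 0.05. FPKM counts fragments per kilobase of a gene's exons and scales them to the library's own denominator. Of the 7 members that could be tested 1 was called higher and 1 lower. Over all genes tested 927 were called, or 4.34%, with 1.81% called higher (386 genes) and 2.53% lower (541 genes). After TPM scaling, in which each library sums to the same total, 208 genes were higher and 704 lower, and the median of all genes moved from -0.01 to -0.10. The median log2 difference was 0.11 over the 7 members and -0.01 over all genes tested. Both calls lie close to the threshold, and the alternatives under which they are lost are given with each gene.

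**Figure D1:**
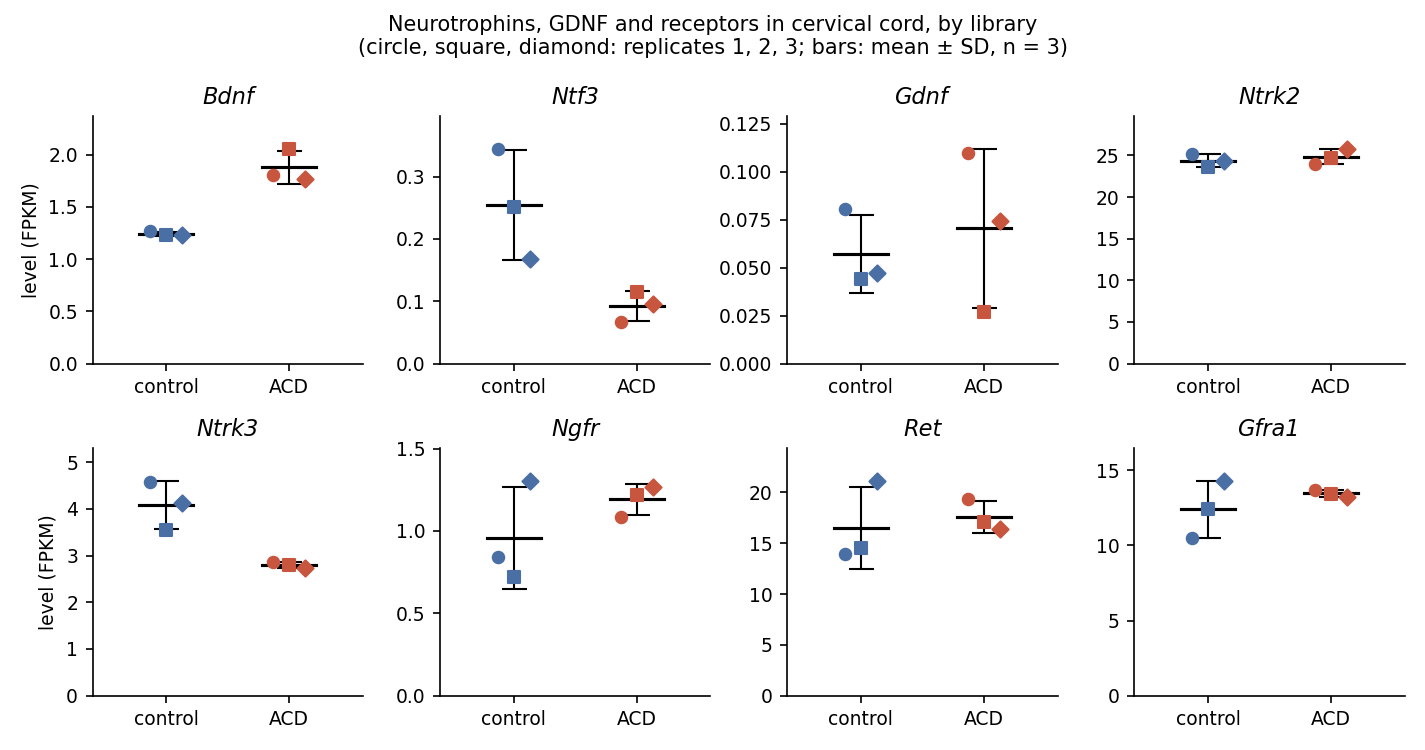
Level of each of the 8 genes in every library, in FPKM on axes that start at 0, with the mean and SD of the 3 libraries of each group. Control and ACD values are separate for Bdnf, Ntf3 and Ntrk3, and they overlap for the other 5 genes.

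The libraries differed in ways that touch these genes. Library denominators, recovered from the steps between low values, ran from 16916600 to 18583991 reads for the controls and from 17346315 to 20245576 for ACD. Neuron markers (Rbfox3, Snap25, Tubb3 and 3 others) and oligodendrocyte markers such as Mbp and Mog were present in all 6. The 8 markers of primary sensory neurons summed to 1.08 to 1.80 FPKM in controls and 1.14 to 2.08 in ACD, with Mrgprd at 0 in every library and Scn10a, Scn11a and Trpv1 at or below 0.117 FPKM. Summed Schwann cell markers, which mark nerve roots, were 77.1 to 139 FPKM in controls and 209 to 305 in ACD, with 0 of 8 called by limma, 4 at an unadjusted p under 0.05 and 1 called by voom. Summed blood markers were 100.1 to 389 FPKM in controls and 481 to 772 in ACD, with 0 of 5 called by limma, 3 at an unadjusted p under 0.05 and 0 called by voom. The 6 oligodendrocyte markers summed to 4305 to 6592 FPKM in controls and 6519 to 7759 in ACD, with 0 called by limma or by voom and 2 at an unadjusted p under 0.05. The 6 neuron markers summed to 644 to 792 FPKM in controls and 803 to 825 in ACD, with 0 called by limma or by voom and 1 at an unadjusted p under 0.05. The 7 astrocyte markers summed to 1441 to 1835 and 1858 to 1973, with 1 called by limma. Their log2 differences ran from 0.10 for Aldoc to 0.48 for Gfap, the one called. The 6 microglia markers summed to 71.9 to 88.7 and 90.4 to 99.5, with 1 called by limma. Their differences ran from 0.03 for P2ry12 to 0.53 for Tmem119, the one called. The 5 markers of oligodendrocyte precursors summed to 31.2 to 34.4 FPKM in controls and 37.3 to 44.6 in ACD, with 0 called by limma, 3 at an unadjusted p under 0.05 and 2 called by voom. The 6 inhibitory neuron markers summed to 137 to 188 FPKM in controls and 174 to 196 in ACD, with a median log2 difference of 0.04. Of them 1 was called by limma and 2 by voom, with 2 at an unadjusted p under 0.05. The limma call was Pdyn, at 4.01 ± 0.378 and 6.66 ± 0.557 FPKM (adjusted p = 0.0169). Slc32a1 differed by 0.44, Gad1 by 0.06, Gad2 and Slc6a5 by 0.02 each, and Pax2 by -0.10. The part that any of these shifts has in the results was not tested.

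Within the control cords Ntrk2, Ret, Gfra1 and Ntrk3 were more abundant than the ligands, while Ngfr was at the level of Bdnf. Ntrk2 stood highest at 24.4 ± 0.818 FPKM (SD, n = 3), above 89.6% of the 17668 protein-coding genes with a level above 0. Ret followed at 16.5 ± 4.03 and Gfra1 at 12.4 ± 1.90, and the ranges of these neighbours overlapped. Ntrk3 came next at 4.09 ± 0.520, apart from the genes on either side of it. Bdnf, at 1.24 ± 0.0194, and Ngfr, with a mean of 0.955 and a range of 0.718 to 1.31, had overlapping ranges. Ntf3 was at 0.255 ± 0.0884 and Gdnf lowest at 0.0572 ± 0.0202, above 9.65% of coding genes. In ACD the order was the same, with no overlap between Ret and Gfra1 or between Bdnf and Ngfr and with Ntf3 now overlapping Gdnf. FPKM divides by all annotated exons of a gene, 19292 bases for Ntrk2 and 30170 for Ntrk3, so levels of genes with many alternative ends may be understated.

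Bdnf encodes brain-derived neurotrophic factor, the ligand of TrkB. The gene lies on chromosome 2 at 109674700 to 109727007 on the plus strand (GRCm38), with 11 annotated coding transcripts that share the coding end and differ in their upstream exons. RefSeq places 7 start sites in it, and the gene-level values do not show which was in use. The 250 bases before each of the 7 start sites were searched on both strands for the cAMP response element TGACGTCA, its core TGACG, the E-box CACGTG and the AP-1 site TGANTCA, since Bdnf is a textbook target of activity-dependent factors that bind such elements. The core lies within the full element, so a full element counts under both. A single window held the core and a single window the AP-1 letters. These 2 windows are shown because they are the only ones with a match, from RefSeq on GRCm38.p6, 5′ to 3′ on the plus strand, with the matching letters in capitals.

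Bdnf window at chr2:109676782-109677031 (AP-1): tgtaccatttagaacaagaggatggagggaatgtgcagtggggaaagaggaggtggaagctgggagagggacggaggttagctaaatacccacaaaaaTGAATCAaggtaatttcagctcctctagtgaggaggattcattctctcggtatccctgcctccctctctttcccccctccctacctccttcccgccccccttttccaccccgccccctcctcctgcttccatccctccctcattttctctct
Bdnf window at chr2:109692186-109692435 (core of the cAMP response element, read on the minus strand): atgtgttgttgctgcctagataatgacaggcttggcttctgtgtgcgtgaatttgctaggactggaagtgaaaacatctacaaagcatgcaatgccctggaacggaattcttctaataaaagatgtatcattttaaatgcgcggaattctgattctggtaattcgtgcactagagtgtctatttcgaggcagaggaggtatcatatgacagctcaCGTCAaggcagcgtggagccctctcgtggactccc

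Among 32851 such windows of 250 bases the core was present in 17.8%, the full element in 1.55%, the E-box in 6.02% and the AP-1 letters in 6.75%. A match describes the letters and is not a measured site. Of the 7 windows of the other members with entries, 1 of Gdnf held the core and 1 of Ntf3 the E-box.

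In the controls Bdnf was at 1.26, 1.23 and 1.23 FPKM, from 133, 142 and 133 reads. In the ACD libraries it was at 1.81, 2.06 and 1.77, from 195, 259 and 201 reads. Each ACD library lay above each control, and the control values were nearly identical to each other. The log2 difference was 0.56 (SE 0.12, 95% interval 0.28 to 0.84, limma adjusted p = 0.0494), placing Bdnf 912th of the 927 called genes by p. The direction was the same in all 15 alternatives, at 0.36 to 0.62, but the call held in only 3 of them, voom on recovered reads, removal of a length and GC trend, and the higher minimum of 1 FPKM. Leaving out any 1 library ended it (adjusted p of 0.0797 to 0.174), and under TPM scaling the adjusted p was 0.0860. An antisense gene, Gm45346, overlaps 14.4% of the Bdnf exon bases, and it was at 0 to 0.0929 FPKM in the 6 libraries, so without known strand its reads cannot be told apart from those of Bdnf there.

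Ntf3 encodes neurotrophin 3, the ligand of TrkC, on chromosome 6 at 126101412 to 126166910 on the minus strand. Control libraries held 10, 8 and 5 reads, or 0.345, 0.251 and 0.168 FPKM. ACD libraries held 2, 4 and 3 reads, or 0.0673, 0.115 and 0.0957 FPKM. The groups did not overlap, but the ACD values lie around the 0.0865 to 0.101 FPKM that 3 reads are worth there. The log2 difference was -0.86 (SE 0.35, 95% interval -1.68 to -0.03, adjusted p = 0.209) and did not pass. Summed over libraries and corrected for the denominators, 9 reads against 23 give a ratio of 0.370, with an exact 95% interval of 0.151 to 0.830 for counting error only. The difference depended on the pseudocount, at -1.34 with 0.01 FPKM and -0.20 with 1 FPKM, and it was negative in all 14 alternatives. Among the 7 tested members the groups were separate for 3, Bdnf, Ntf3 and Ntrk3, where the share over the whole table was 28.6%.

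Ntrk3 encodes TrkC, the receptor of neurotrophin 3, on chromosome 7 at 78175959 to 78738012 on the minus strand. It is a long gene, 562054 bases with 5.37% of them exonic, and its 6 coding transcripts include full kinase receptors of up to 864 residues and a form of 612 residues, which the gene-level values join. Controls were at 4.58, 3.55 and 4.13 FPKM, from 2339, 1988 and 2160 reads. The ACD libraries were at 2.85, 2.80 and 2.73, from 1494, 1708 and 1509 reads. Each ACD library was below each control, and the ACD values spread far less than the controls. The log2 difference was -0.52 (SE 0.11, 95% interval -0.78 to -0.27, adjusted p = 0.0460), or a change of -30.5% on that scale. It was negative in all 15 alternatives and the call held in 5 of them.

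Exon length moved with the differences of protein-coding genes, and of the 8 members Ntrk3 has the longest exons in sum. Among protein-coding genes whose mean reached 1 FPKM the median log2 difference was 0.17 for the 1497 genes with up to 2000 exon bases, 0.08 up to 5000, 0.00 up to 10000 and -0.09 up to 20000. For the 91 genes beyond 20000 bases, where Ntrk3 lies, it was -0.20, and 7 of the 91, Ntrk3 included, were as low as Ntrk3 or lower. Once each library had been freed of a smooth trend with exon length and GC content, the Ntrk3 difference was -0.25 (adjusted p = 0.192), less than the reported value by over 1.5 times, and the call was lost. After TPM scaling it was -0.62 (adjusted p = 0.0465). Leaving out control 1 gave -0.44 (adjusted p = 0.110), and leaving out control 2 gave -0.62 (adjusted p = 0.0348), the single library whose removal kept the call. Ntrk2, with 19292 exon bases, was at 0.19 (adjusted p = 0.127) after the same correction, and Bdnf, with 6217, at 0.62 (adjusted p = 0.0374).

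**Figure D2:**
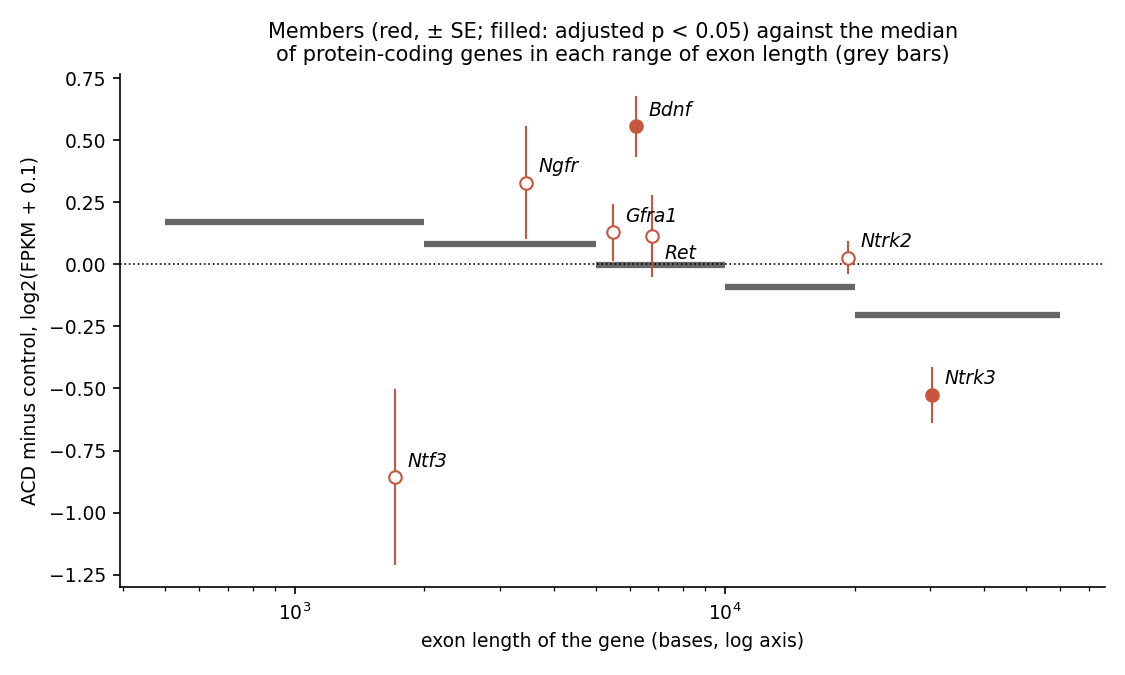
Log2 difference between ACD and control, with its SE, of the 7 tested genes (red, filled where called) against exon length on a log axis. Grey bars give the median of protein-coding genes in each range of length, which goes from 0.17 for the shortest to -0.20 for the longest; Ntrk3 lies below its range's median and Bdnf above.

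Ntrk2 encodes TrkB, on chromosome 13 at 58806569 to 59133970 on the plus strand. Neurons make the full kinase receptor and astrocytes mostly a truncated form without the kinase, and the 7 annotated coding transcripts run from 466 to 821 residues, so the gene-level value sums both kinds. Controls were at 25.2, 23.6 and 24.4 FPKM and ACD libraries at 24.0, 24.7 and 25.8, from 8030 to 9647 reads. The groups overlapped almost completely. The log2 difference was 0.03 (SE 0.06, adjusted p = 0.830), and its 95% interval, from -7.78% to 12.6%, is the narrowest of the 7 genes. Its sign turned with TPM scaling (-0.07) and without ACD 3 (-0.0010), so no direction can be read from it. A shift between isoforms would not appear here.

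Ngfr encodes p75, which binds all neurotrophins and their precursors and is made by some neurons, Schwann cells and fibroblasts. It lies on chromosome 11 at 95568818 to 95587735 on the minus strand. Controls were at 0.841, 0.718 and 1.31 FPKM, from 49, 46 and 78 reads, and ACD libraries at 1.09, 1.22 and 1.27, from 65, 85 and 80. Control 3 lay above all ACD libraries and the other two controls lay below them. The log2 difference was 0.33 (SE 0.22, 95% interval -0.20 to 0.85, adjusted p = 0.435). Without control 3 it was 0.56 (adjusted p = 0.125) and without control 2 it was 0.17 (adjusted p = 0.700). The summed Schwann cell markers were higher in all ACD libraries than in any control. Within the controls they were at 134, 139 and 77.1 FPKM, lowest in control 3, where Ngfr was highest. The 7 meningeal fibroblast markers summed to 17.33 to 43.15 FPKM in controls and 30.15 to 40.57 in ACD, which overlap. The part of Schwann cells or fibroblasts in the Ngfr values was not tested.

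Gdnf encodes the ligand of the RET pathway, on chromosome 15 at 7810846 to 7837575 on the plus strand. Control libraries held 5, 3 and 3 reads and ACD libraries 7, 2 and 5, or 0.0439 to 0.0804 and 0.0269 to 0.110 FPKM. Here 3 reads are worth 0.0403 to 0.0483 FPKM, so most values lie near that limit. The gene did not reach the minimum for the test. Its difference of 0.09 on the log2(FPKM + 0.1) scale carries no call, and the ratio of summed reads was 1.20 with an exact 95% interval of 0.507 to 2.93 for counting error only.

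Ret encodes the kinase through which GDNF and its relatives signal, and Gfra1 the co-receptor that binds GDNF. Both are known from motor neurons. They lie on chromosome 6 at 118151745 to 118197718 and on chromosome 19 at 58235604 to 58455909, both on the minus strand. Ret was at 13.9, 14.5 and 21.2 FPKM in controls and 19.4, 17.1 and 16.4 in ACD. Control 3 was highest and controls 1 and 2 lowest, with all ACD libraries between. The log2 difference of Ret was 0.11 (SE 0.16, 95% interval -0.27 to 0.50, adjusted p = 0.719). Without control 3 it was 0.31 (adjusted p = 0.113), and without control 1 it was 0.004.

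Gfra1 was at 10.5, 12.4 and 14.3 FPKM in controls and 13.7, 13.5 and 13.3 in ACD, so the ACD values lay together inside the control range. Its log2 difference was 0.13 (SE 0.11, 95% interval -0.13 to 0.39, adjusted p = 0.541), at 0.02 without control 1 and 0.24 without control 3. Within each group Ret and Gfra1 ranked the libraries alike, and so did 3 of the 7 motor and cholinergic markers, Chat, Slc18a3 and Mnx1. The ACD values of Gfra1, from 1304, 1492 and 1328 reads, lie so close together that their order carries little information. How many of all genes share this order was not counted. The other 4, Slc5a7, Isl1, Prph and Ache, gave another order in at least 1 group. Chat, the acetylcholine-synthesising enzyme of motor neurons, was at 4.93, 5.81 and 7.93 FPKM in controls and 7.17, 5.34 and 4.81 in ACD. Hoxc8, a gene of the lower cervical and upper thoracic cord, was at 10.4, 45.9 and 32.7 FPKM in controls and 38.8, 31.5 and 19.7 in ACD. It is 1 of 12 listed markers of spinal position. These markers belong to several cord levels, so their sum cannot show a shift between levels. They summed to 183, 188 and 193 FPKM in controls and 194, 203 and 216 in ACD. Of the 10 tested, 0 were called by limma or by voom, and 0 had an unadjusted p under 0.05. Of the 7 motor and cholinergic markers 0 were called by limma or by voom, and 0 had an unadjusted p under 0.05. The part that motor neuron content or the level of the cut has in the spread of Ret and Gfra1 was not tested.

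**Figure D3:**
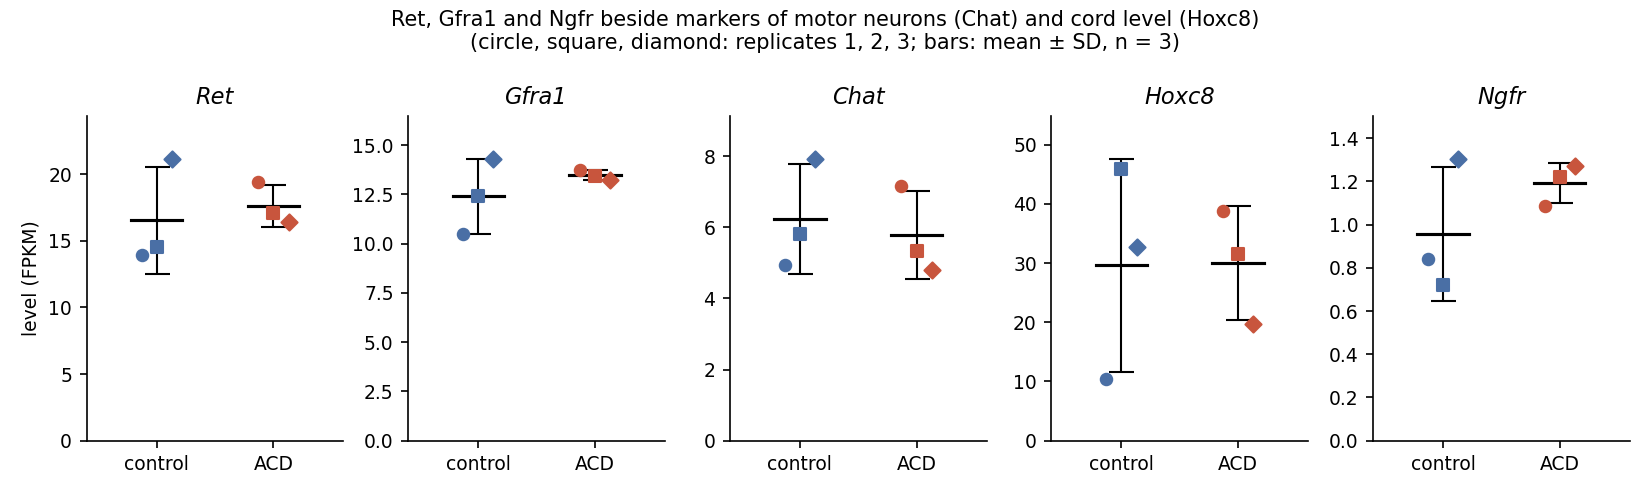
Ret, Gfra1 and Ngfr in FPKM by library beside Chat (motor neurons) and Hoxc8 (cord level), with the mean and SD of 3 libraries, on axes that start at 0. Ret, Gfra1 and Chat have the same order of libraries within each group, which 4 of the 7 motor and cholinergic markers do not share. The ACD values of Gfra1 lie so close together that their order carries little information. Hoxc8, 1 of 12 listed markers of spinal position, is lowest in control 1, at 10.4 FPKM. The 12 markers summed to 183 FPKM there and to 188 and 193 in controls 2 and 3. A sum over markers of several cord levels cannot show a shift between them.

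Beyond the 8 genes, the remaining ligands and receptors of both families were low or did not pass, with the exception of Nrtn. Nrtn encodes neurturin, a GDNF relative that signals through GFRα2 and RET. It rose from 3.70, 3.68 and 3.27 FPKM in controls to 5.18, 4.68 and 5.13 in ACD, on 58 to 97 reads (log2 difference 0.48, SE 0.09, adjusted p = 0.0325). The ACD libraries were all above the controls, and Nrtn stood above Bdnf and Gdnf in every library per length. The call held in 3 of 15 alternatives and was lost after TPM scaling (0.39, adjusted p = 0.0727) and with voom. It was also lost once a trend with exon length and GC content was removed (0.47, adjusted p = 0.096). Its co-receptor Gfra2 was at 5.24 ± 0.792 and 6.23 ± 1.04 FPKM (adjusted p = 0.397), and Gfra4, which binds persephin, at 11.4 ± 1.67 and 13.01 ± 0.5004 (adjusted p = 0.308).

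The other GDNF relatives Artn, at 0.341 and 0.295 FPKM, and Pspn, at 0.753 and 0.966, rested on 8 to 18 and 4 to 13 reads per library and did not pass. Gfra3, Gfral and the Gfral ligand Gdf15 averaged below 0.1 FPKM in both groups and were not tested. Ncam1, an alternative GDNF receptor, was at 22.7 ± 3.64 and 26.3 ± 1.28 FPKM (adjusted p = 0.298), and Sdc3, a proteoglycan that binds GDNF, at 60.7 ± 5.81 and 67.0 ± 2.74 (adjusted p = 0.352). Of the 7 tested genes in this list 1 was called, against 4.34% of all genes.

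Among the other neurotrophin genes 0 of 6 tested were called by limma, 0 had an unadjusted p under 0.05 and 0 were called by voom. Ntf5, another ligand of TrkB, averaged 2.67 reads and was not tested. Sort1, which pairs with p75 to bind the precursor forms, was abundant at 52.4 ± 6.46 and 57.3 ± 1.51 FPKM (adjusted p = 0.435), and Sorcs1, Sorcs2 and Sorcs3 differed by 0.08, -0.11 and -0.16 (adjusted p of 0.419 to 0.754).

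**Figure D4:**
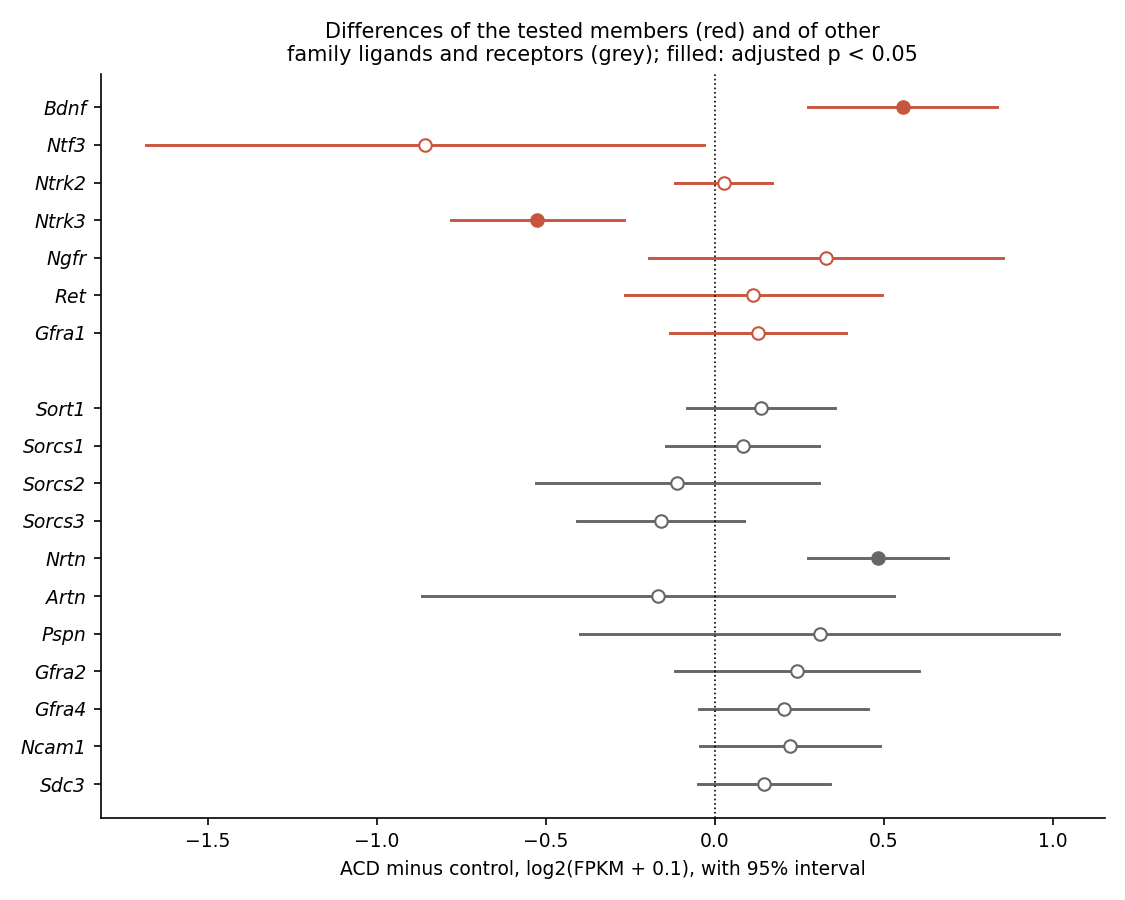
Log2 difference between ACD and control, with its 95% interval, of the 7 tested members (red) and 11 other ligands and receptors of the families (grey), filled where the adjusted p passed 0.05. Bdnf and Nrtn lie to the right of 0 and Ntrk3 to the left with their whole intervals, as does Ntf3, which was not called; the intervals of low genes such as Ntf3, Artn and Pspn are widest.

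Of 155 tested genes in 9 lists of the wider pathway 11 were called, 10 higher and 1 lower (7.10%, against 4.34% of all genes tested), with a median log2 difference of 0.06. The groups did not overlap for 58 of the 155, against 28.6% of all genes tested. After TPM scaling 4 were called, 2 higher and 2 lower. That count of calls depended on the analysis, from 0 without ACD 3 or without the trend and robust settings to 19 with voom, and 45 genes had an unadjusted p under 0.05. In the list of targets that Trk or RET signalling induces 2 of 21 rose and none fell, with a median of 0.15, beside the 1.81% that rose over all genes. Vgf, a secreted neuropeptide precursor known to be induced by BDNF, rose from 34.4, 30.9 and 46.5 FPKM to 64.3, 63.0 and 69.4 (log2 difference 0.83, SE 0.15, adjusted p = 0.0289). Each ACD library was above each control. The Vgf call held in 7 of 15 alternatives and was lost after TPM scaling (0.74, adjusted p = 0.0540). Junb, an AP-1 transcription factor, rose from 4.73, 3.79 and 5.36 to 7.67, 10.003 and 12.9 (1.11, SE 0.20, adjusted p = 0.0334). The call held in 6 of 15 alternatives and was lost after TPM scaling (adjusted p = 0.0544), and 7.52% of its exon bases overlap the gene Prdx2. The list's genes respond to many other stimuli as well.

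Adaptors and effectors that Trk and RET receptors share gave 0 calls of 35 by limma, with a median of 0.02, 6 genes at an unadjusted p under 0.05 and 1 call by voom. The smallest p was that of Mapk3, the kinase ERK1, at 69.8 ± 4.81 and 85.4 ± 3.72 FPKM (0.29, adjusted p = 0.0730). Of 16 partners of p75 and genes of its death signalling 4 rose and none fell, with a median of 0.15, where 1.81% of all genes tested rose. Among them were Bax, a pore-forming apoptosis protein (12.1 ± 1.11 to 17.8 ± 1.05 FPKM, 0.55, SE 0.09, adjusted p = 0.0233), the GTPase Rhoa (0.34, adjusted p = 0.0362) and Bex3, a p75-binding protein (0.29, adjusted p = 0.0403). The Rhoa call held in 5 of 15 alternatives and was lost after TPM scaling (adjusted p = 0.0752). Bex3 shares 12.3% and Bax 8.51% of its 50-base words with other gene models, and Bex3 was at 0.10 once the length and GC trend was removed (adjusted p = 0.399). The Bex3 call held in 4 of 15 alternatives and was lost after TPM scaling (adjusted p = 0.155). The Bax call held in 9 of 15.

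For the enzymes and inhibitors that process neurotrophin precursors 0 of 12 tested were called by limma (median 0.06), 3 had an unadjusted p under 0.05 and 1 was called by voom. Cpe, the carboxypeptidase that sorts BDNF into secretory granules, had the smallest p, at 437 ± 15.9 and 546 ± 27.0 FPKM (0.32, adjusted p = 0.0525). Regulators of Bdnf transcription gave 0 calls of 14 by limma with a median of -0.05, 3 at an unadjusted p under 0.05 and 2 by voom. The smallest p among them was that of the CREB coactivator Crtc2, at 5.10 ± 0.439 and 3.53 ± 0.487 (-0.52, adjusted p = 0.0598). Genes that carry neurotrophin receptors through endosomes gave 0 calls of 16 by limma (median -0.03), 4 at an unadjusted p under 0.05 and 1 by voom, with Rab7 at the smallest p (0.26, adjusted p = 0.0661).

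In the list of other neurotrophic factors and their receptors 3 of 28 rose and 1 fell, with a median of 0.09, beside 1.81% higher and 2.53% lower over all genes tested. Mdk, the heparin-binding factor midkine, rose by 0.53 (SE 0.08, adjusted p = 0.0218), from a control mean of 11.99 FPKM to 17.4 in ACD. The Mdk call held in 9 of 15 alternatives and was lost once the length and GC trend was removed (0.37, adjusted p = 0.0681). Manf, a factor of the endoplasmic reticulum with neurotrophic activity, rose from 9.89 ± 1.07 to 15.9 ± 2.12 (0.68, SE 0.12, adjusted p = 0.0289), and 9.25% of its exon bases overlap other genes. The Manf call held in 9 of 15 alternatives and was lost after TPM scaling (adjusted p = 0.0539). Cntfr, the receptor of ciliary neurotrophic factor, rose by 0.38 (adjusted p = 0.0402), a call that held in 5 of 15 alternatives and was lost after TPM scaling (adjusted p = 0.136) and once the length and GC trend was removed (adjusted p = 0.0516). Igf1r, the receptor of insulin-like growth factor 1, fell from 4.27 ± 0.158 to 3.23 ± 0.199 (-0.39, SE 0.08, adjusted p = 0.0497). It is a gene with 16791 exon bases, and it was at -0.26 after the length and GC trend was removed (adjusted p = 0.158). The Igf1r call held in 3 of 15 alternatives.

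By Pearson's r of log2(FPKM + 0.1) over the 6 libraries, the coding genes with patterns most like that of Bdnf were Mpv17l2 (0.994) and Med7 (0.991). For Ntrk3 they were a gene without a symbol, ENSMUSG00000079773 (0.998), and Zcchc8 (0.993), for Ntf3 Btg3 (0.996) and Slc4a7 (0.993), and for Ntrk2 Zfp523 (0.997) and Trim8 (0.992). Ngfr was followed most closely by Tox4 (0.997) and Cep170b (0.995), Ret by Myo1e (0.995) and Cacng2 (0.992), Gfra1 by Clmp (0.991) and Sparcl1 (0.989), and Gdnf by Vegfa (0.982) and Ptprb (0.980). With 6 libraries in 2 groups and 12148 genes or more to choose from, such values are a description only.

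**Figure D5:**
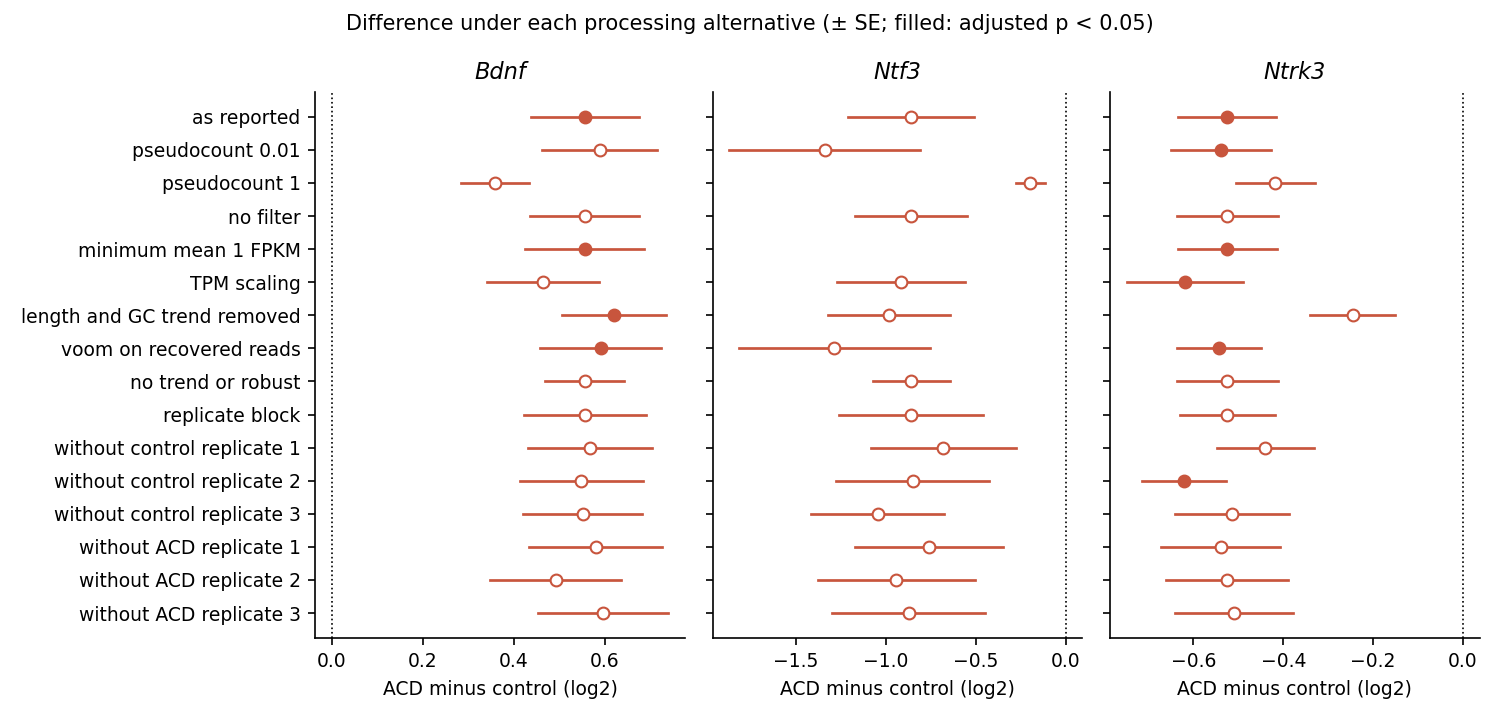
Log2 difference, with its SE, of Bdnf, Ntf3 and Ntrk3 as reported and under each alternative, filled where the adjusted p passed 0.05. All values of Bdnf lie above 0 and all of Ntf3 and Ntrk3 below; Bdnf is called in 3 of 15 alternatives, Ntrk3 in 5 of 15 and Ntf3 in none of 14, since the minimum of 1 FPKM removed Ntf3.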

How the data were processed

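Total RNA of 6 cervical cords was sequenced, 3 control and 3 ACD. The deposited values are FPKM, 1 table per library. Per the submitters' processing notes, the tools were DESeq2 1.16.1, HISAT2 2.0.5 and featureCounts 1.5.0-p3 on mm10, and their roles are not stated. For the kit, the strand and the annotation used, the answer is not given in the sources used here. Descriptions of the samples gave the group and the replicate number. The labels call the replicates biological, and each library was taken as 1 mouse. No batch is labelled, so none was tested.

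Symbols were matched for 54409 of 54532 identifiers, and gene models for 54495 came from GENCODE M21 (GRCm38, the assembly of mm10). FPKM times exon length and the library's denominator came out whole, to within 0.05 reads, for 96.9% of values above 0. For 2 kb of exon, 3 reads equal 0.0741 to 0.0887 FPKM, which covers counting error only. The fit used R 4.3.3 with limma 3.58.1 (linear models and eBayes, both trend and robust on) on log2(FPKM + 0.1), a scale that understates changes of low genes, for genes whose mean reached 0.1 FPKM, two-sided, with Benjamini-Hochberg adjustment over all genes tested. A run on simulated data required only that planted changes came back, on average, with the right sign, so it does not bear on calls near the threshold.

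The members, lists and rules were chosen with earlier results of these data known. Named were the 8 members, the other ligands and receptors of both families, up to 6 called genes of each other list or the one with the smallest p, and the 2 genes most like each member among coding genes whose mean reached 1 FPKM. RefSeq promoter windows (GRCm38.p6) matched 6 of the 8 members. Alternatives covered the pseudocount, the filter, TPM scaling, a length and GC trend (natural splines), voom on recovered reads with TMM scaling, plain eBayes, a replicate block and each library left out. Some genes that the rule names are not reported here.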

Additional observations from a re-analysis of the deposited data

How the results depend on the processing

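Directions of Bdnf, Ntf3, Ntrk3, Ngfr, Ret and Gfra1 were the same in every alternative run; that of Ntrk2 turned with TPM scaling (-0.0697) and without ACD 3 (-0.0010; -0.0010 to 0.0516 over the 6 libraries left out). Gdnf, a value with no test, ran from -0.07 without ACD 1 to 0.29 without ACD 2. Bdnf was no longer called with a pseudocount of 0.01 (0.589) or 1 (0.359), without a filter (0.556), with TPM scaling (0.465), with plain eBayes (0.556), with the replicate block (0.556) and without any 1 library (0.492 to 0.596). Ntrk3 was no longer called with a pseudocount of 1 (-0.417), without a filter (-0.525), with the length and GC trend removed (-0.246), with plain eBayes (-0.525), with the replicate block (-0.525) and without 5 of the 6 libraries (-0.620 to -0.440 over all 6). Over all genes 927 calls became 556 without a filter, 420 with plain eBayes, 1664 with voom, 181 with the replicate block and 192 to 736 without 1 library. The 11 calls in the wider pathway became 4 without a filter, 4 with TPM scaling, 7 with the length and GC trend removed, 19 with voom, 0 with plain eBayes in limma (38 at an unadjusted p under 0.05), 1 with the replicate block and 0 to 9 without 1 library (0 without ACD 3, with 34 at an unadjusted p under 0.05). The replicate block and the removal of a library leave the test fewer degrees of freedom, while the other alternatives keep all 6 libraries. What part this or any other cause has in the losses was not tested. The labels state no pairing by replicate number. Deviations of same-numbered libraries correlated at -0.071, 0.077 and 0.05. Control 2 correlated best with ACD 2 and control 3 with ACD 3, while control 1 correlated best with ACD 3 (0.072). Values this close to 0 do not settle whether the numbers pair anything. Depth limits Gdnf and Ntf3, with at most 10 reads per library. Gdnf could be fitted only without the filter (0.09, SE 0.32, adjusted p = 0.893), and Ntf3 not with a minimum of 1 FPKM.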
